A study of Sus scrofa with 29 samples.

Results

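The adhesion molecules by which the artery lining catches leukocytes from the blood are described here across 2 arteries of exercised and sedentary pigs. They are the genes VCAM1, ICAM1, ICAM2, PECAM1, SELE and SELP, chosen by symbol: every probe set of the porcine array that the platform annotation assigns to 1 of these 6 genes was taken. The 6 genes, of 6765 named on the array, had 7 probe sets among the 23999 that were tested, with 2 for PECAM1 and 1 for each other gene.

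The study scraped the luminal surface of the brachial artery (a forelimb artery) and the internal mammary artery (an artery of the chest wall) of healthy pigs, and hybridised the RNA of each scrape to its own array. There were 7 brachial arrays of exercised pigs, 7 brachial arrays of sedentary pigs, 8 internal mammary arrays of exercised pigs and 7 internal mammary arrays of sedentary pigs, 29 arrays from 15 pigs in all. Exercised pigs ran on a treadmill for 16 to 20 weeks, reaching 85 min a day on 5 days a week by week 10, and were euthanized about 24 h after their last run. Sedentary pigs were kept confined. Each pig carries its own identifier in the labels, so the arrays of a group are separate animals, and 14 pigs gave both arteries while exercised pig 12_2 gave the internal mammary artery alone by its labels. The design text of the series gives the lone artery of 1 pig as brachial instead, although its counts of arrays per artery are those of the labels, and the labels were followed. The labels used here give no sex, breed, age or genetic change for any group, and the sample is an endothelium-enriched scrape rather than sorted cells.

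Leukocytes leave the blood in steps. Selectins on activated endothelium slow the passing cell into a roll, immunoglobulin-type molecules such as VCAM1, ICAM1 and ICAM2 then hold it by its integrins, and PECAM1 at the cell borders takes part in the passage between endothelial cells. In cultured human endothelium, cytokines such as TNF and IL-1 raise SELE, VCAM1 and ICAM1 through the transcription factor NF-kappaB, whereas ICAM2 and PECAM1 are made by resting cells.

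Of 14 endothelial marker genes 12 were on the array. CDH5, the cadherin of endothelial junctions, lay between 11.87 and 12.73 and NOS3, the endothelial nitric oxide synthase, between 12.00 and 12.78 on the log2 intensity scale over all arrays. The defining marker KDR stayed between 3.58 and 4.46, and VWF varied between 6.04 and 12.06. RNA of other cells was present too: the mean of 12 smooth muscle markers was 11.96 ± 0.71 in brachial exercised, 12.19 ± 0.77 in brachial sedentary, 11.54 ± 0.60 in internal mammary exercised and 11.85 ± 0.55 in internal mammary sedentary pigs (SD, n = 7, 7, 8 and 7). The mean of 9 macrophage markers was 8.42 ± 0.21 in brachial exercised against 8.96 ± 0.36 in brachial sedentary pigs, and 8.95 ± 0.25 in internal mammary exercised against 9.03 ± 0.31 in internal mammary sedentary pigs. In such mixed tissue, fewer cells of a type and less RNA per cell cannot be told apart. Array medians were 7.13 to 7.28, and 2 arrays of the series correlated at 0.965 to 0.995. The number of arrays limits the precision of every value below.

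Training left the adhesion molecules without a change that passed the test. With limma across all probe sets and an adjusted p under 0.05, 0 of the 7 probe sets passed in the brachial artery, where 1.63% of all probe sets did. In the internal mammary artery 0 of 7 passed, beside 0.596% of all probe sets, and in the average of both arteries 0 of 7 passed, beside 4.68%. The median of the 7 log2 changes was 0.05 in the brachial artery, 0.02 in the internal mammary artery and 0.06 in the average, where the medians of all probe sets were 0.01, 0.01 and 0.01. Without sedentary pig 12_3, described below, the 3 medians of the adhesion molecules were 0.08, 0.16 and 0.09. A change that misses the threshold is not shown to be absent, and the intervals below give the sizes these pigs allow.

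**Figure D1:**
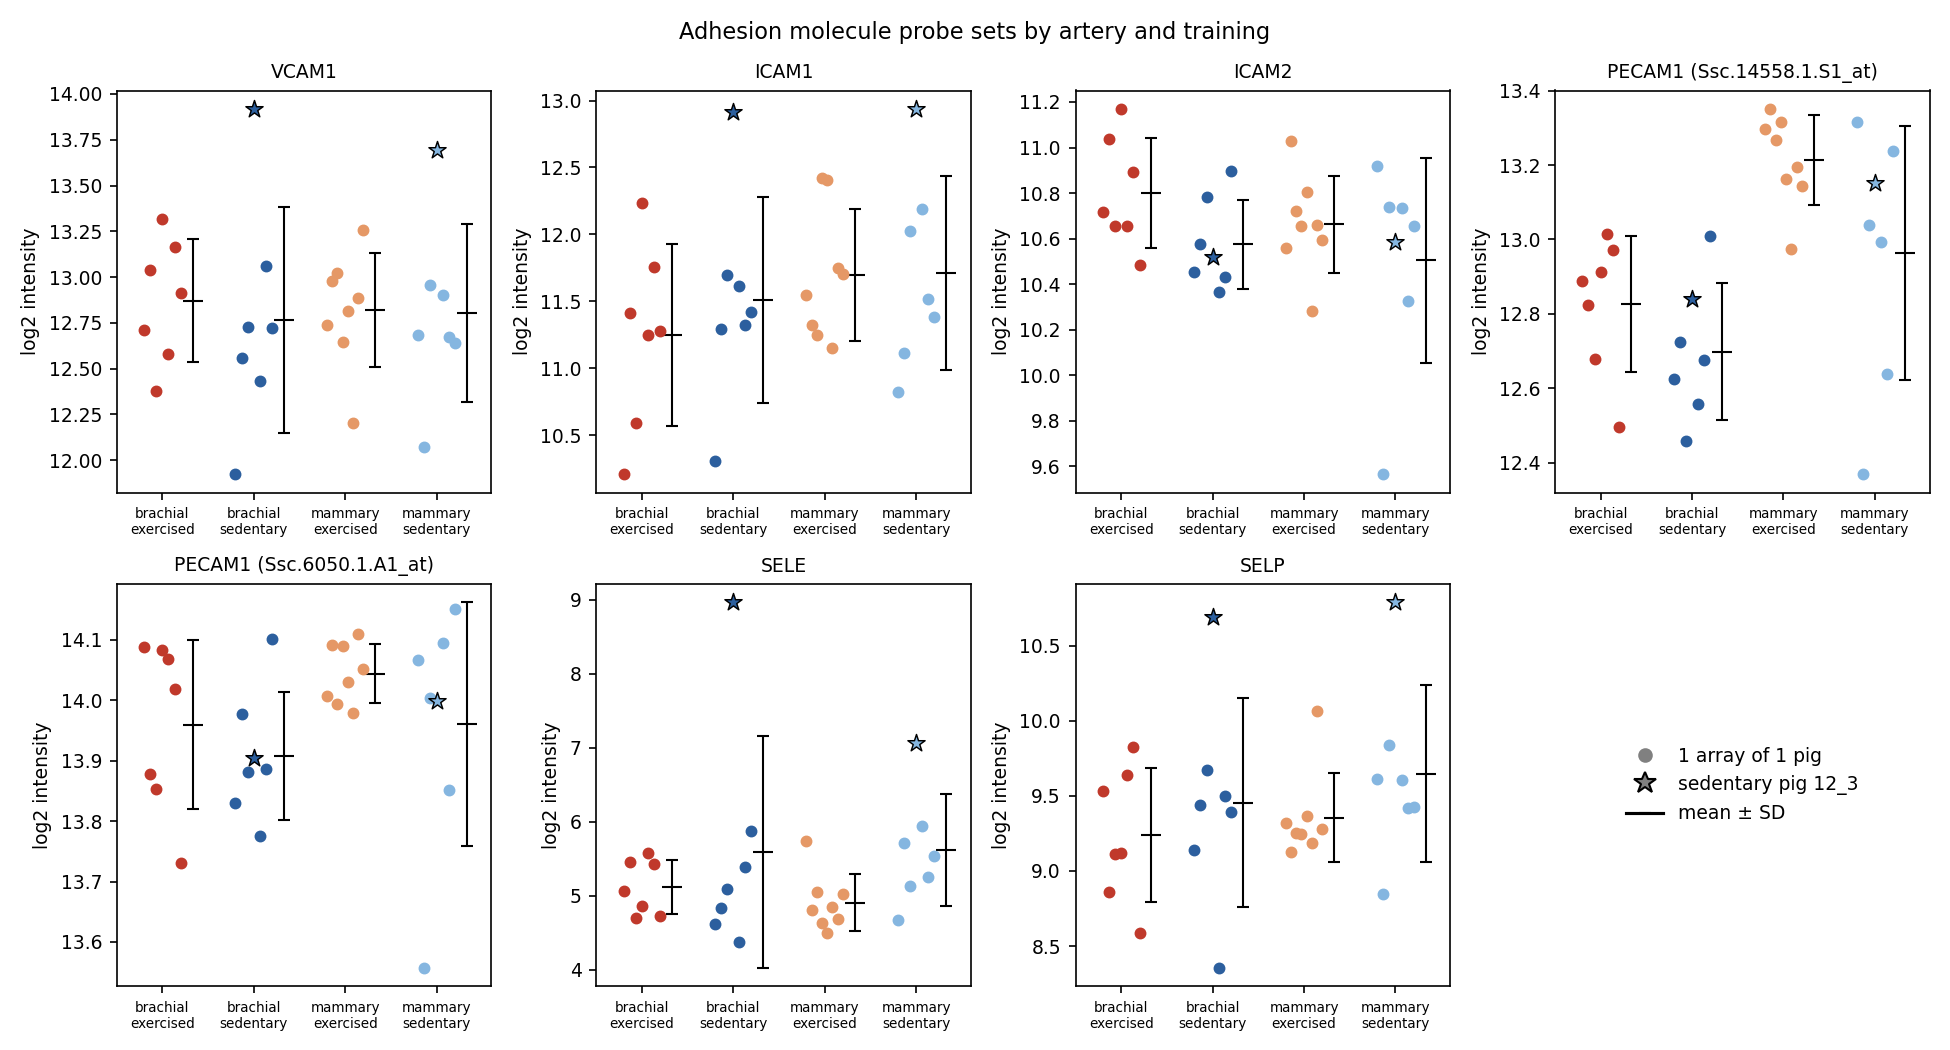
Log2 intensity (vertical axis) of each of the 7 probe sets on every array, by artery and training (horizontal axis); points are arrays of single pigs, bars are mean ± SD, and the star is sedentary pig 12_3. Exercised and sedentary values overlap in every panel, and the star is the top sedentary value in both arteries for VCAM1, ICAM1, SELE and SELP.

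The selectins come first in the sequence. SELE, E-selectin, is made by endothelium after cytokine exposure. It was dim here, with a mean of 5.30 over all arrays, under the array medians of 7.13 to 7.28. How far it lay above background could not be measured. Its brachial log2 values had a lowest, median and highest of 4.70, 5.07 and 5.58 in exercised pigs, against 4.38, 5.10 and 8.97 in sedentary pigs. In the internal mammary artery they were 4.50, 4.83 and 5.74 in exercised pigs, against 4.68, 5.53 and 7.06 in sedentary pigs. The groups overlapped in both arteries, and the highest sedentary value in each artery came from pig 12_3. The log2 change was -0.49 ± 0.43 (SE; 95% interval -1.38 to 0.40, adjusted p 0.650) in the brachial artery. It was -0.71 ± 0.42 (-1.57 to 0.15, adjusted p 0.529) in the internal mammary artery, where 7 of 8 exercised pigs lay below the sedentary mean. Without pig 12_3 the brachial change turned to 0.08 ± 0.24 and the internal mammary change was -0.47 ± 0.23 (adjusted p 0.477).

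SELP, P-selectin, is stored in endothelial granules and also in platelets. Brachial values were 8.59, 9.12 and 9.82 (lowest, median, highest) in exercised pigs, against 8.36, 9.44 and 10.69 in sedentary pigs. Internal mammary values were 9.13, 9.26 and 10.07 in exercised pigs, against 8.85, 9.60 and 10.79 in sedentary pigs. As with SELE, pig 12_3 held the top sedentary value in both arteries and the groups overlapped. The log2 change of SELP was -0.22 ± 0.25 (95% interval -0.73 to 0.29, adjusted p 0.745) in the brachial artery and -0.29 ± 0.24 (-0.79 to 0.21, adjusted p 0.696) in the internal mammary artery. Without pig 12_3 these were -0.01 and -0.10. The platelet genes on the array, ITGA2B, GP9 and PPBP, had a mean level of 6.42 ± 0.08 in brachial exercised against 6.36 ± 0.19 in brachial sedentary pigs and 6.41 ± 0.17 in internal mammary exercised against 6.44 ± 0.28 in internal mammary sedentary pigs, and 0 of 3 passed with training.

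The immunoglobulin-type ligands hold the leukocyte once it has slowed. VCAM1, bound by the integrin of ITGA4 and ITGB1, had brachial log2 values of 12.38, 12.91 and 13.32 (lowest, median, highest) in exercised pigs, against 11.92, 12.72 and 13.92 in sedentary pigs. In the internal mammary artery it had 12.20, 12.85 and 13.26 in exercised pigs, against 12.07, 12.68 and 13.69 in sedentary pigs. Both ends of the sedentary range lay outside the exercised range in each artery, so the groups overlapped fully. The log2 change was 0.10 ± 0.22 (95% interval -0.35 to 0.55, adjusted p 0.878) in the brachial artery and 0.02 ± 0.21 (-0.42 to 0.45, adjusted p 0.991) in the internal mammary artery. Without pig 12_3 it was 0.30 and 0.16.

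ICAM1 is the ligand of the beta-2 integrins that leukocytes switch on. Its brachial values were 10.21, 11.27 and 12.23 (lowest, median, highest) in exercised pigs, against 10.31, 11.42 and 12.91 in sedentary pigs. Internal mammary values were 11.15, 11.63 and 12.42 in exercised pigs, against 10.82, 11.52 and 12.94 in sedentary pigs. The ranges coincided over most of their length. The log2 change was -0.24 ± 0.31 (95% interval -0.88 to 0.40, adjusted p 0.788) in the brachial artery and -0.02 ± 0.30 (-0.64 to 0.60, adjusted p 0.993) in the internal mammary artery. Without pig 12_3 the values were -0.01 and 0.19.

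ICAM2, a beta-2 integrin ligand of resting endothelium, had brachial values of 10.49, 10.72 and 11.17 (lowest, median, highest) in exercised pigs, against 10.36, 10.52 and 10.90 in sedentary pigs. In the internal mammary artery the values were 10.28, 10.66 and 11.03 in exercised pigs, against 9.56, 10.66 and 10.92 in sedentary pigs. More exercised pigs lay above the sedentary mean than below it, 6 of 7 brachial and 7 of 8 internal mammary arrays, though the groups overlapped. The internal mammary sedentary mean of 10.50 was lowered by pig 11_1, at 9.56 where the next lowest pig had 10.32, and the 2 medians there were equal. The log2 change was 0.23 ± 0.15 (95% interval -0.08 to 0.53, adjusted p 0.511) in the brachial artery and 0.16 ± 0.15 (-0.14 to 0.46, adjusted p 0.730) in the internal mammary artery. Over 30 alternatives of processing and of the pigs included, the internal mammary change ran from 0.002 to 0.29.

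PECAM1, the homophilic molecule of endothelial borders, was read by 2 probe sets, called S1 and A1 here after the ends of their identifiers. S1 had brachial values of 12.50, 12.89 and 13.02 (lowest, median, highest) in exercised pigs, against 12.46, 12.68 and 13.01 in sedentary pigs. S1 had internal mammary values of 12.98, 13.23 and 13.35 in exercised pigs, against 12.37, 13.04 and 13.32 in sedentary pigs. Every one of the 8 exercised internal mammary arrays lay above the sedentary mean, while the sedentary values spread over and below the exercised range. The log2 change of this probe set was 0.13 ± 0.12 (95% interval -0.11 to 0.37, adjusted p 0.651) in the brachial artery and 0.25 ± 0.11 (0.02 to 0.48, adjusted p 0.361) in the internal mammary artery. PECAM1 A1, near the top of the array's scale, had a log2 change of 0.05 ± 0.08 (-0.10 to 0.21, adjusted p 0.809) and 0.08 ± 0.07 (-0.07 to 0.24, adjusted p 0.720). The array maxima were 14.64 to 14.79 and this probe set reached 14.15, and whether readings near the maximum were compressed was not tested.

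**Figure D2:**
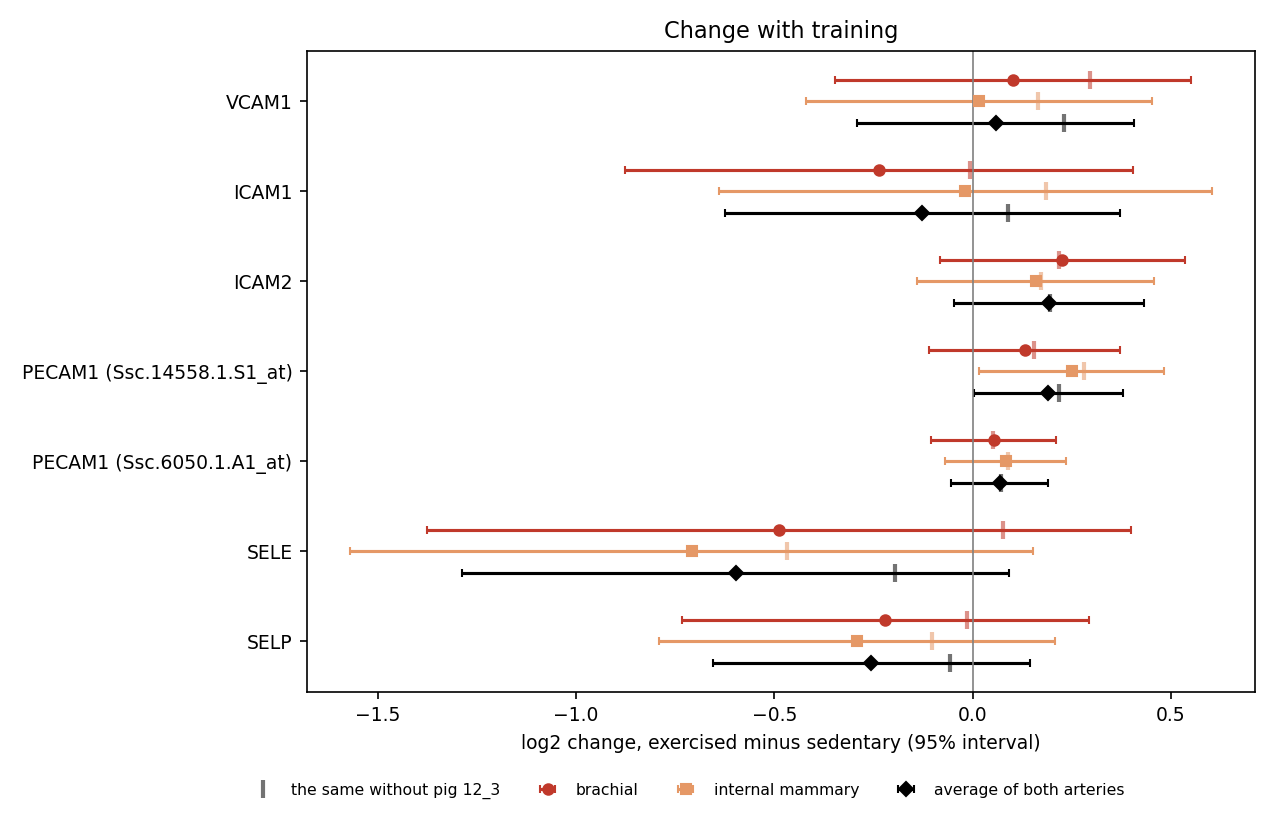
Log2 change with training (horizontal axis, exercised minus sedentary) of each probe set, with 95% intervals, for the brachial artery, the internal mammary artery and their average; short vertical marks give the same value without sedentary pig 12_3. Most intervals span 0; those of PECAM1 (S1) in the internal mammary artery and the average do not, and its adjusted p values there are 0.361 and 0.258.

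The exercise changes were also compared between the arteries. In the test of that difference (brachial change minus internal mammary change) 0 of the 7 probe sets passed with limma, where 0% of all probe sets did. At an unadjusted p under 0.05, 4.31% of all probe sets differed, and the member values had adjusted p of 0.9998 throughout. The differences of log2 changes were 0.09 ± 0.27 for VCAM1, -0.22 ± 0.38 for ICAM1, 0.07 ± 0.18 for ICAM2, 0.22 ± 0.52 for SELE and 0.07 ± 0.30 for SELP.

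Sedentary pig 12_3 stood apart in VCAM1, ICAM1, SELE and SELP, and it did so in both arteries. It was the highest of 7 sedentary pigs for VCAM1, at 13.92 (brachial) and 13.69 (internal mammary), where the medians of the other 6 sedentary pigs were 12.64 and 12.68. For ICAM1 it had 12.91 and 12.94, where the medians of the others were 11.37 and 11.45. For SELE it had 8.97 and 7.06, against 4.97 and 5.39 in the others, and for SELP 10.69 and 10.79, against 9.41 and 9.51. It was not the highest for ICAM2 or either PECAM1 probe set. That made 4 of 7 probe sets (57.1%) highest in this pig in both arteries, beside 10.5% of all probe sets. The other sedentary pigs were highest in both arteries for 1.68% to 4.69% of all probe sets. The pig was singled out after its values were seen, and it has no replicate, so these are descriptions.

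The NF-kappaB pathway, by which cytokines raise SELE, VCAM1 and ICAM1 in cultured human endothelium, was counted in the same pig. Of 19 measured genes of the NF-kappaB pathway and cytokine receptors it was the highest sedentary pig in both arteries for 9 (47.4%), among them NFKBIB, an inhibitor subunit, at 10.47 and 10.57 where the next sedentary pigs had 9.29 and 9.35. IL1R1, the receptor for IL-1, was 11.20 and 11.11 in this pig, where the next sedentary pigs had 10.36 and 10.95. Of 13 other cytokine-induced genes it was highest in both for 5 (38.5%). SOD2, the mitochondrial superoxide dismutase, was 12.69 and 12.44, and the next sedentary pigs had 10.35 and 10.54. CCL2, the monocyte chemokine, was 11.44 and 10.88, where the next had 9.91 and 10.03. Other genes of these lists lay below the median of the other sedentary pigs in both arteries, TRAF6, an adaptor of IL-1 signalling, at 5.74 and 6.44 with medians of 5.95 and 7.08 in the others, and likewise CXCL12, F3 and LIF. Of 7 leukocyte receptors of the adhesion molecules 1 (14.3%) was highest in this pig in both arteries, ITGB3, the integrin beta chain of the vitronectin receptor, at 9.78 and 10.27, where the next had 8.30 and 8.29. NFKBIA, TNF and CXCL8, of the same lists, were highest in this pig in the brachial artery alone, and IL6 in neither artery. These genes were picked for display after their values were seen, and the activity of the pathway was not tested.

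Markers of cell types moved with it unevenly. Its macrophage marker mean of 9.65 was the highest of the brachial sedentary pigs, while in the internal mammary artery its 9.38 was not the highest. In the brachial artery 5 of 9 macrophage markers were highest in this pig, beside 19.2% of all probe sets. In the internal mammary artery 1 of 9 was (11.1%), beside 19.1%. Its mean of 3 neutrophil markers, 5.73, was the highest of the brachial sedentary pigs, and its 6.67 in the internal mammary artery was not. Of 12 smooth muscle markers 0 were highest in this pig, of 12 endothelial markers 0 were highest in both arteries, and its smooth muscle mean of 11.38 was the lowest of the internal mammary sedentary pigs. The part of these cells in its adhesion molecule values was not tested.

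**Figure D3:**
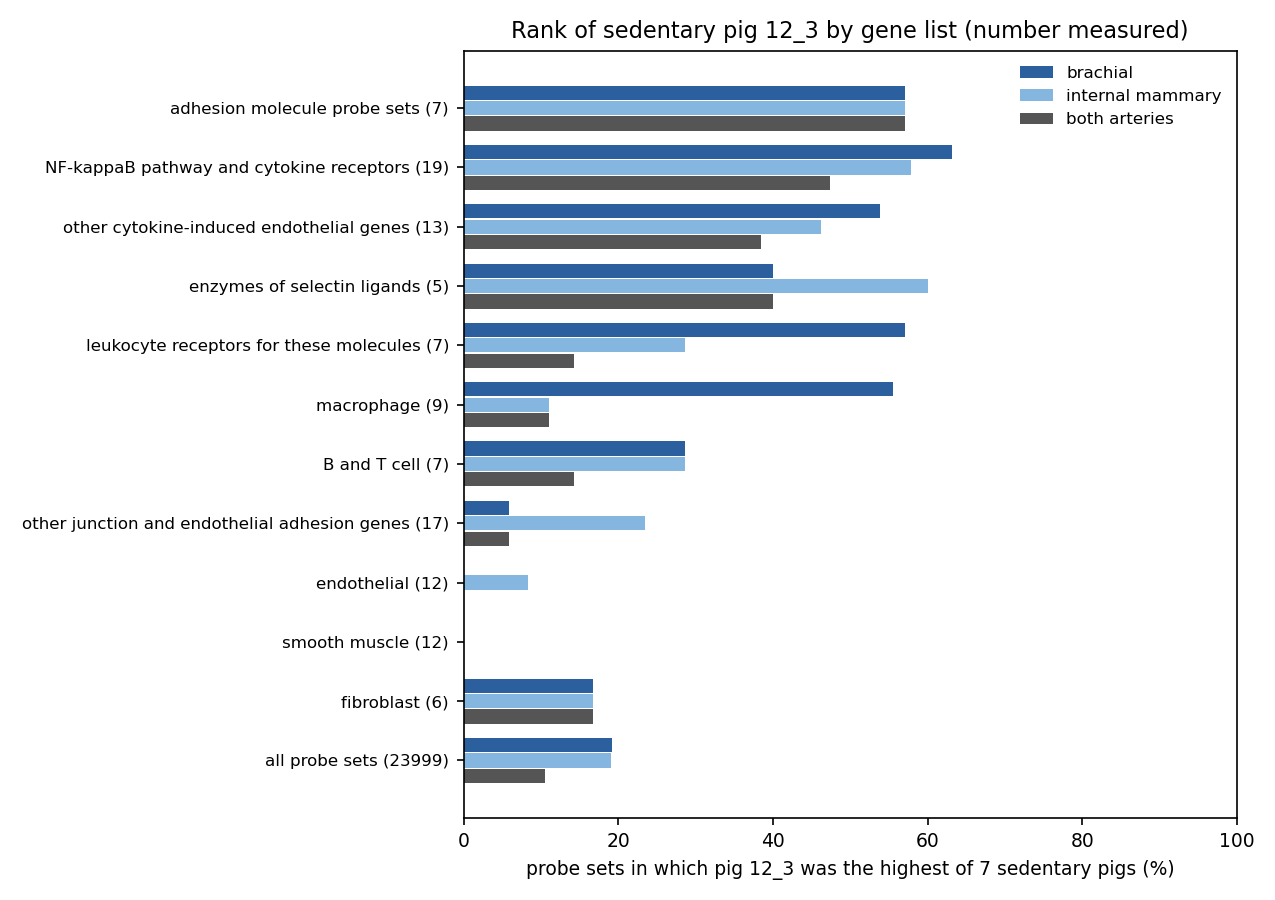
Share of the probe sets of each gene list (horizontal axis, %) for which sedentary pig 12_3 was the highest of the 7 sedentary pigs, in the brachial artery, in the internal mammary artery and in both; the number of genes measured is in brackets. The adhesion probe sets reach 57.1% in both arteries, the NF-kappaB list 47.4% and all probe sets 10.5%.

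The lowest values were set beside smooth muscle markers. In each of the 4 groups VCAM1 was lowest in the pig whose smooth muscle marker mean was highest. These were pig 11_3 in brachial exercised (mean 12.88), pig 10_2 in brachial sedentary (13.21), pig 14_3 in internal mammary exercised (12.61) and pig 11_1 in internal mammary sedentary pigs (12.81). The endothelial marker mean was also the lowest of the group in pigs 10_2 (10.08), 14_3 (10.13) and 11_1 (10.15), but not in pig 11_3 (10.24). VCAM1 was singled out by its values among the 7 probe sets. How many of all probe sets were lowest in these pigs in all 4 groups was not counted. In internal mammary exercised pig 14_3, 5 of 7 probe sets were the lowest of the group, VCAM1, ICAM1, ICAM2 and both of PECAM1, beside 18.5% of all probe sets. In internal mammary sedentary pig 11_1, 5 of 7 were the lowest, VCAM1, ICAM2, SELP and both of PECAM1, beside 24.5% of all probe sets. In the brachial artery 2 of 7 were lowest in that pig in each group, beside 13.2% of all probe sets in exercised and 17.3% in sedentary pigs. With training 0 of 12 smooth muscle markers passed, and their median log2 change was -0.25 in the brachial artery and -0.32 in the internal mammary artery. With the smooth muscle mean as a covariate, the training changes of VCAM1 were 0.01 ± 0.17 in the brachial artery and -0.10 ± 0.16 in the internal mammary artery, and 0 of 7 probe sets passed. The part of smooth muscle cells in the adhesion molecule values was not tested.

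The spread between pigs of a group set these molecules apart from each other. The pooled within-group SD of log2 values was 0.896 for SELE, 0.668 for ICAM1, 0.521 for SELP and 0.450 for VCAM1, and 99%, 97.4%, 94.8% and 92.6% of all probe sets had a smaller one. ICAM2 had 0.291 (80.3% smaller), and the PECAM1 probe sets had 0.219 (64.6%) and 0.133 (16.6%). The median over all probe sets was 0.186. SELE, with the widest spread, was also the dimmest of these molecules (mean log2 value 5.30). The 4 with the wider spread are those in which pig 12_3 stood highest. Without pig 12_3 the SDs of SELE, ICAM1, SELP and VCAM1 were 0.436, 0.556, 0.389 and 0.335, which still exceeded those of 92.5%, 95.8%, 90.1% and 86.2% of all probe sets.

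Between the arteries, 1 of the 6 genes, PECAM1, passed the test, with 1 of its 2 probe sets. PECAM1 S1 was lower in the brachial than in the internal mammary artery, and 11 of 14 pigs with both arteries showed that direction. In exercised pigs 1 of 7 probe sets passed, beside 41.2% of all probe sets in either direction and 17% lower in the brachial artery. In sedentary pigs 1 of 7 passed, beside 34.8% in either direction and 14.2% lower. In the average of both training states 1 of 7 passed, beside 54.3% in either direction and 22.5% lower. These counts rest on 7 probe sets of 6 genes and were not tested against the shares of all probe sets.

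The PECAM1 values by group (S1) were 12.83 ± 0.18 in brachial and 13.21 ± 0.12 in internal mammary exercised arrays (SD, n = 7 and 8), and 12.70 ± 0.18 in brachial and 12.96 ± 0.34 in internal mammary sedentary arrays (n = 7 each). The log2 change was -0.38 ± 0.10 in exercised pigs (adjusted p 0.00289), -0.26 ± 0.10 in sedentary pigs (adjusted p 0.0438) and -0.32 ± 0.07 in the average (adjusted p 0.00037), with limma. The direction held in 6 of 7 exercised and 5 of 7 sedentary pigs. The exceptions were pig 14_3, at 13.02 (brachial) and 12.98 (internal mammary), pig 11_1, at 12.73 and 12.37, and pig 15_1, at 12.68 and 12.64. Pigs 14_3 and 11_1 were also those with the highest internal mammary smooth muscle means and the lowest endothelial means of their groups. Whether either bears on their direction was not tested.

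The call in sedentary pigs was lost when any of pigs 10_1, 10_2, 10_5, 11_4, 12_3, 12_5, 13_2, 15_2 or 17_1 was left out (adjusted p 0.0521 to 0.169), and in the fit with the RNA integrity ratio as a covariate (28S over 18S ribosomal RNA; log2 change -0.18 ± 0.11, adjusted p 0.260). It was also lost with the pig as a fixed block (adjusted p 0.0768), with no block (0.0887) and by exact permutation (0.243). The call in exercised pigs was lost by exact permutation (adjusted p 0.0801) and with the last 7 pigs alone (0.134). Before adjustment the exact permutation p was 0.125 in sedentary and 0.0313 in exercised pigs. With 7 pigs in each training state few arrangements exist, which limits how small an exact permutation p can be, but the sedentary p was above 0.05 before any adjustment. The 28S over 18S ratio ran at 1.21 to 1.79 in brachial and 1.07 to 1.29 in internal mammary sedentary arrays, and at 1.20 to 1.70 in brachial and 1.25 to 1.47 in internal mammary exercised arrays. The other probe set, A1, differed by -0.07 ± 0.05 in the average (95% interval -0.16 to 0.03, adjusted p 0.225) and was lower in the brachial artery in 9 of 14 pigs. The pair tracked each other over pigs, with r of 0.855 over 14 brachial and 0.873 over 15 internal mammary arrays after the training group means were removed.

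The other 5 molecules did not pass between arteries. ICAM1 had brachial minus internal mammary log2 changes of -0.42 ± 0.26 in exercised pigs (adjusted p 0.208), -0.20 ± 0.27 in sedentary pigs (adjusted p 0.593) and -0.31 ± 0.19 in the average (95% interval -0.70 to 0.07, adjusted p 0.166), and was lower in the brachial artery in 9 of 14 pigs. With the pig as a fixed block, in the 14 paired pigs, its average was -0.27 ± 0.10 and passed (adjusted p 0.0362). The averages were 0.00 ± 0.13 for VCAM1 (-0.27 to 0.28), 0.11 ± 0.09 for ICAM2 (-0.08 to 0.29), 0.09 ± 0.26 for SELE (-0.45 to 0.62) and -0.16 ± 0.15 for SELP (-0.47 to 0.15). Those 4 intervals, and that of ICAM1, allow differences of either sign.

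**Figure D4:**
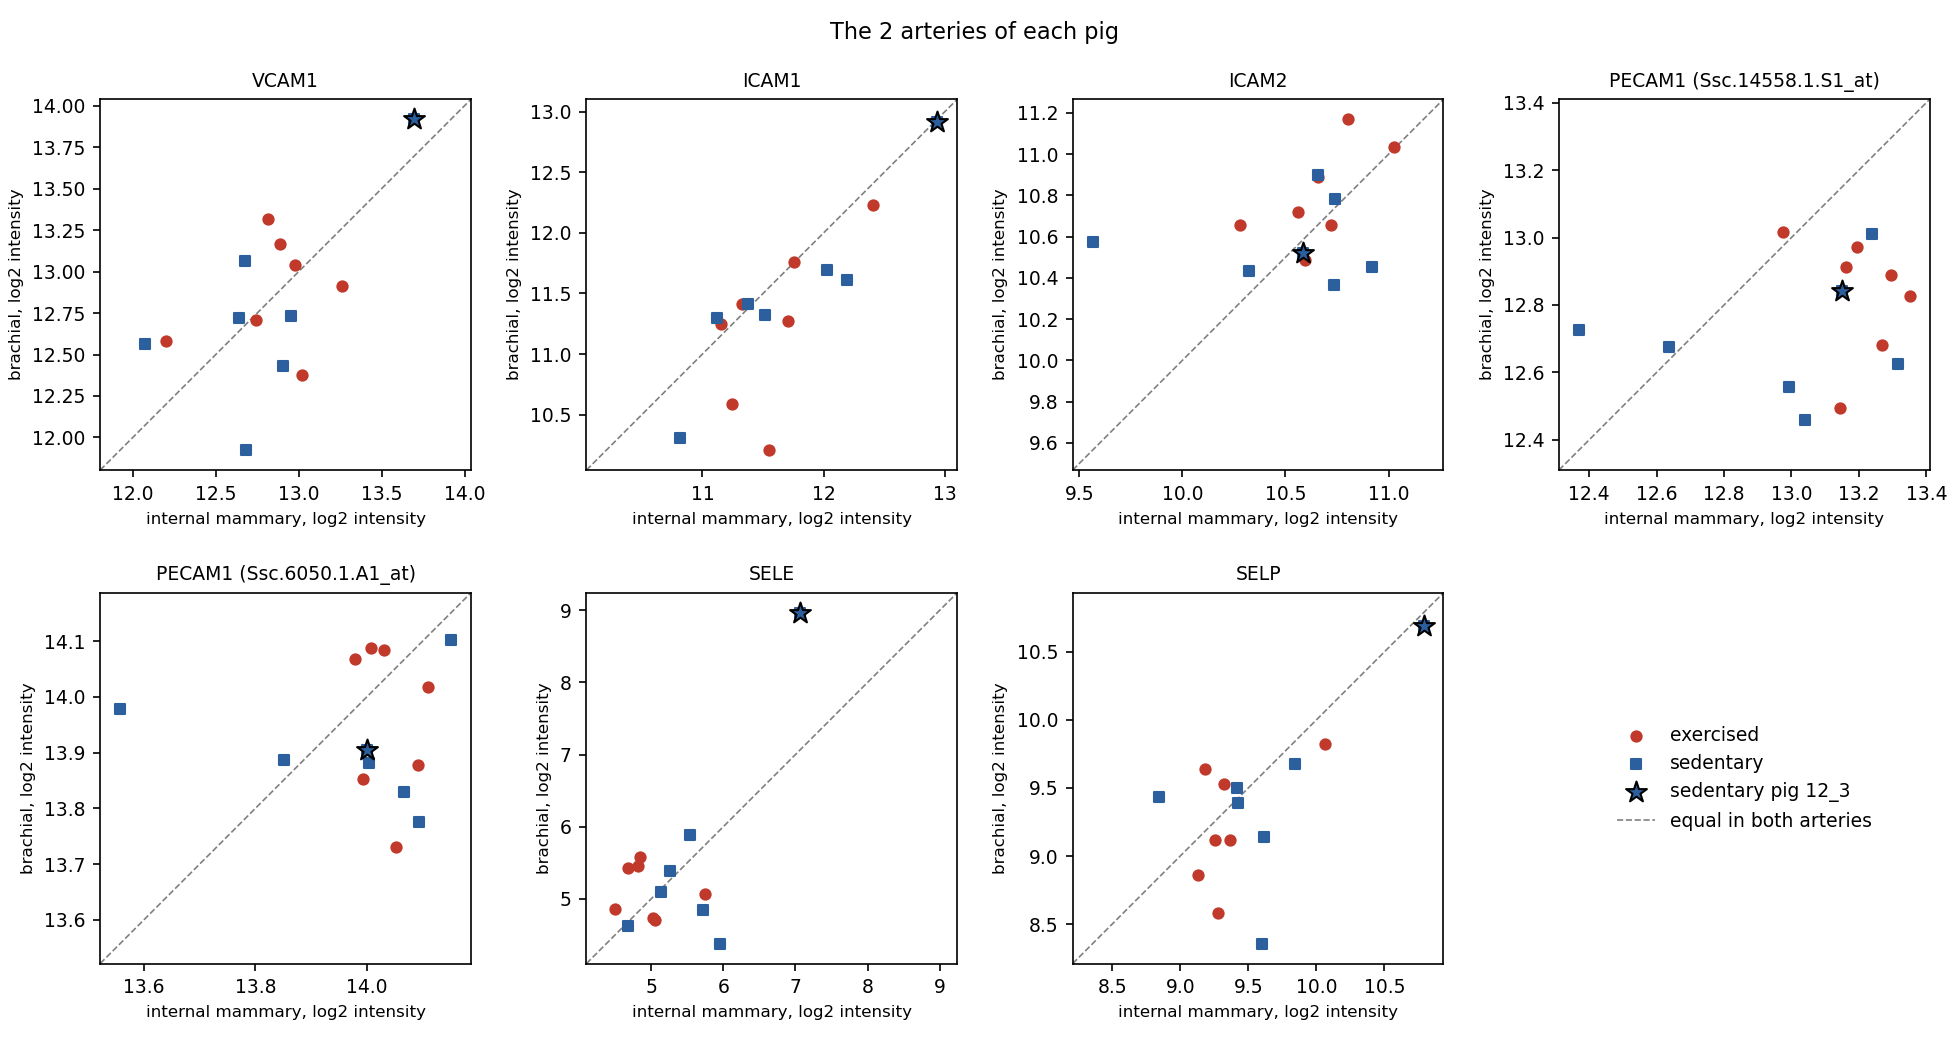
Log2 intensity in the brachial artery (vertical axis) against the internal mammary artery (horizontal axis) of the same pig, for the 14 pigs with both arteries; the dashed line marks equal values and the star is sedentary pig 12_3. PECAM1 (S1) lies below the line in 11 of 14 pigs, and ICAM1 in 9 of 14.

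The level of ICAM1 in a pig carried over from one artery to the other. After the group means were removed, its brachial and internal mammary values correlated with r = 0.816 and rho = 0.798 over 14 pigs (permutation test within training groups, two-sided; p 0.00071 and 0.00136, adjusted over 6 genes 0.00426 and 0.00816). Without pig 12_3 r was 0.700 (adjusted permutation p 0.0448), and among the first 8 and last 7 pigs by date, 7 pairs each, it was 0.832 and 0.836 (exact permutation, adjusted p 0.233 and 0.0833). With 7 pairs few arrangements exist, which limits how small such a p can be. Without the 2 pigs farthest from the median of the internal mammary values r was 0.573 (adjusted permutation p 0.251). Leaving out the extremes of 1 variable tends to lower r by itself, so that drop alone does not show a weak correlation. Those pigs were 12_3 and 12_5.

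The other 5 genes did not pass in that test. SELE had r = 0.655, SELP 0.608 and VCAM1 0.552 (rho 0.165, 0.323 and 0.292, adjusted permutation p 0.141 for each r). Without pig 12_3 these r were -0.117, 0.225 and 0.129. ICAM2 had 0.251 and PECAM1 (A1) -0.118.

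Within an artery, 3 of 30 pairs of genes passed a test of correlation over pigs. In the brachial artery VCAM1 went with ICAM1 (r = 0.855, rho = 0.727, permutation p 0.00101 and 0.00627, adjusted p over the 30 pairs 0.0257 and 0.0940). There SELE also went with SELP (r = 0.785, rho = 0.600, permutation p 0.00200 and 0.0163, adjusted 0.0257 and 0.163). In the internal mammary artery ICAM2 went with PECAM1 (r = 0.877, rho = 0.768, permutation p 0.00257 and 0.00364, adjusted 0.0257 and 0.0940). Without pig 12_3 r was 0.760, 0.605 and 0.876 for the 3 pairs, and 0 of 30 passed. Without the 2 pigs farthest from the median of the gene named first in the pair, it was 0.652, 0.445 and 0.567, again with 0 of 30 passing. Here too, leaving out the extremes of 1 gene tends to lower r by itself. By rank on all pigs 0 of 30 passed too. Within the first 8 pigs r was 0.939, 0.867 and 0.957, and within the last 7 it was 0.527, 0.893 and 0.723. The unadjusted exact permutation p were 0.0278, 0.118 and 0.0226 in the first 8 and 0.326, 0.0347 and 0.0903 in the last 7. With 7 or 8 pigs few arrangements exist, so that the adjustment over 30 pairs left almost no room to pass. Neither the r nor the missing calls in so few pigs settle these correlations.

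**Figure D5:**
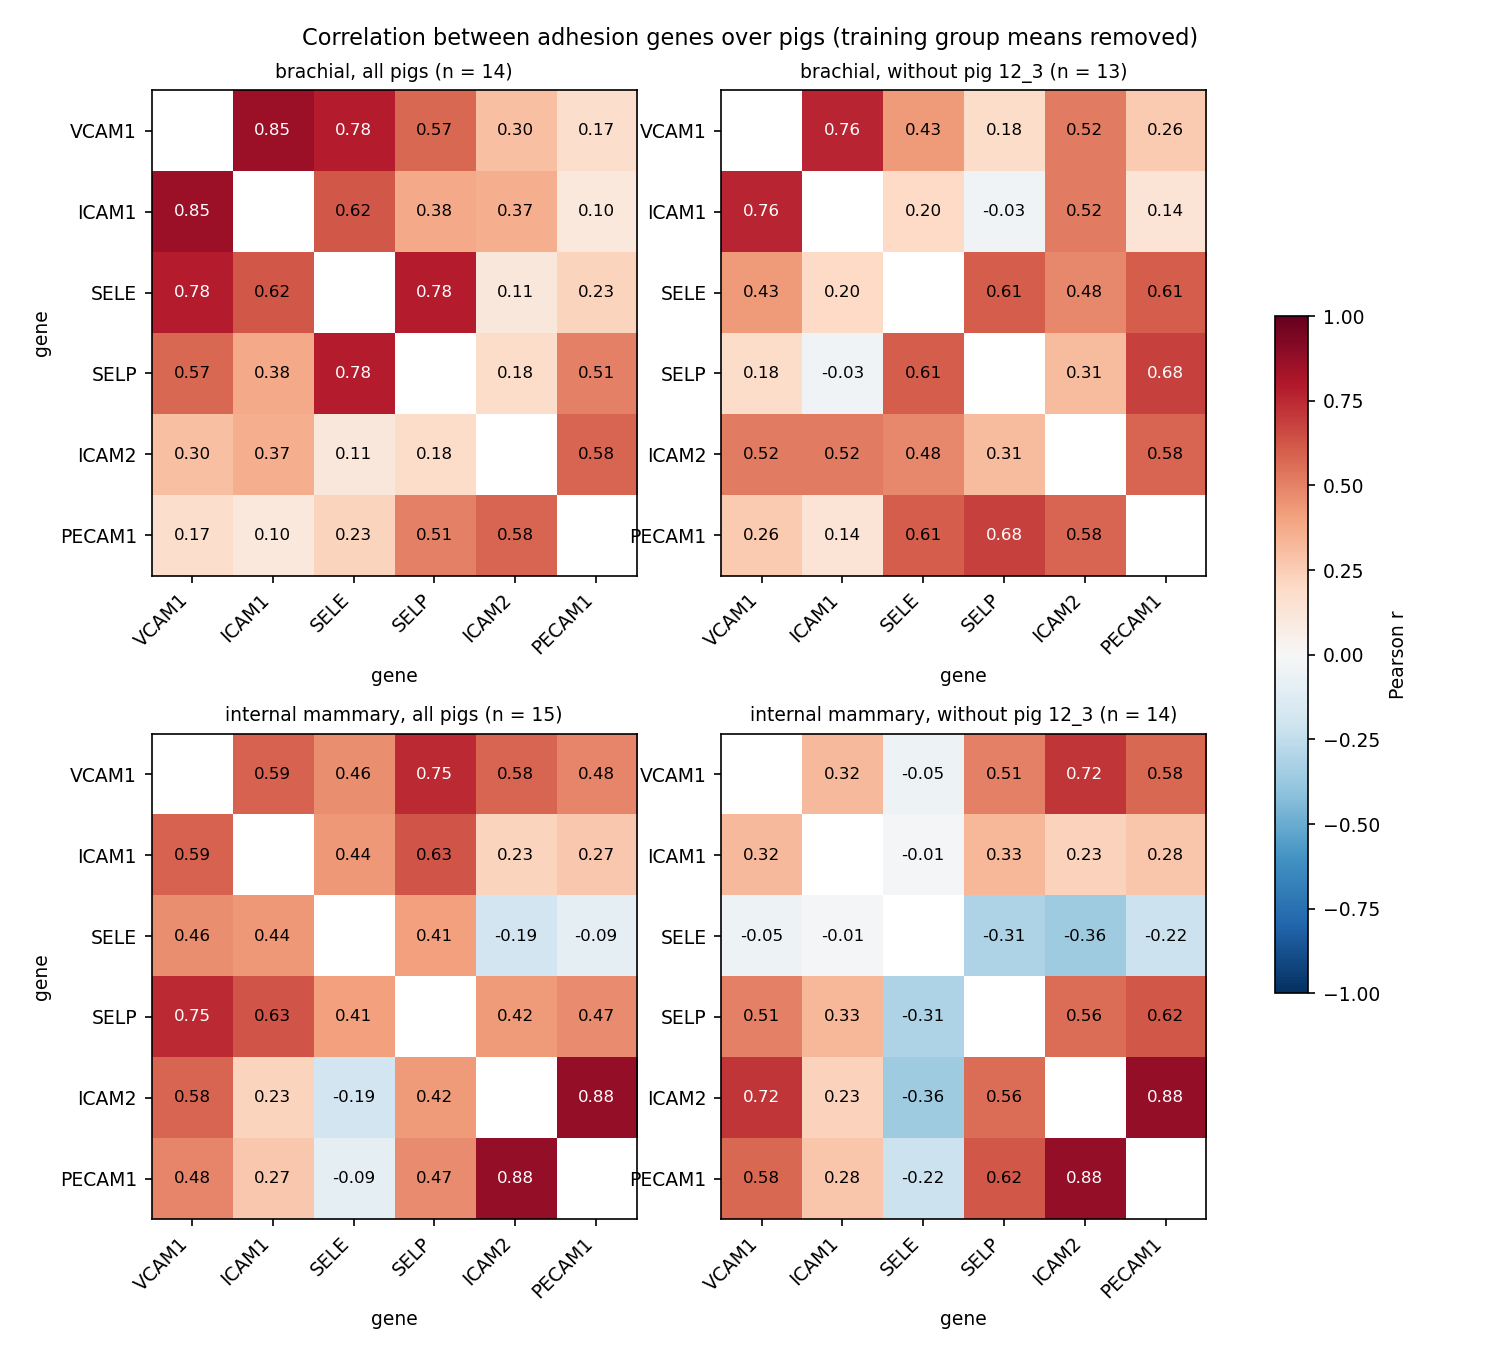
Pearson r between pairs of adhesion genes over pigs (both axes list genes; colour and printed value are r), in the brachial artery (top) and the internal mammary artery (bottom), with all pigs at left and without sedentary pig 12_3 at right; PECAM1 is A1. VCAM1 with ICAM1 is 0.855 at top left and 0.760 at top right.

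The genes whose values most resembled each member over the 29 arrays, after the 4 group means were removed, are named as a description with no test, since arteries of a pig share more than these genes. PECAM1 (A1) was nearest to FLT1, a VEGF receptor (r = 0.87), B3GNT3 (0.86), PTGS1, a prostaglandin synthase (0.86), KCNN3 (0.85) and NOTCH4, a Notch receptor of endothelium (0.83). ICAM2 was nearest to SELENOF (0.85), ORMDL2 (0.85), FXYD5 (0.84), RAMP2 (0.83) and MGAT4B (0.81). Without pig 12_3 their r with ICAM2 lay between 0.82 and 0.87.

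VCAM1 was nearest to TMEM230 (0.86), DTX3L (0.86), WARS (0.85), ARL2BP (0.85) and SHISA5 (0.84), and without pig 12_3 these were 0.76, 0.73, 0.71, 0.68 and 0.72. ICAM1 was nearest to C4H8orf76 (0.84), ITFG2 (0.81), FUT8 (0.79), NEK6 (0.79) and DTX3L (0.79), so DTX3L stood on both lists. Without pig 12_3 the r with ICAM1 were 0.74, 0.71, 0.65, 0.65 and 0.66. DTX3L then ranked 17 for VCAM1 and 27 for ICAM1. SELP was nearest to RBM39 (0.84), PCNX1 (0.81), TMED10 (0.80), STX6 (0.80) and DDB1 (0.78), and without pig 12_3 these were 0.72, 0.65, 0.67, 0.54 and 0.65. SELE was nearest to SOD2 (0.80), TMEM33 (0.78), MRE11 (0.78), PPID (0.77) and NRAP (0.77), and without pig 12_3 these were 0.11, 0.42, 0.44, 0.19 and 0.47.

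The genes around these molecules were counted from lists. The leukocyte receptors that bind them had 7 of 18 genes on the array, and with training 0 of 7 passed in either artery or in the average. ITGB2, the beta chain shared by the receptors of ICAM1 and ICAM2, had a brachial log2 change of -0.60 ± 0.18 (adjusted p 0.0847). Of 5 measured glycosyltransferases from a list for selectin ligands 0 passed with training. They were ST3GAL4, B4GALT1, FUT1, FUT2 and FUT8, and whether each acts on such ligands was not tested. ST3GAL4, a sialyltransferase, had a brachial change of 0.32 ± 0.10 (adjusted p 0.0862). Of the 19 genes of the NF-kappaB pathway and cytokine receptors 0 passed in either artery or in the average, with medians of -0.09, -0.04 and -0.04. Without pig 12_3 these medians were -0.02, 0.02 and 0.01.

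Other cytokine-induced genes had 0 of 13 passing in each artery and 1 in the average, where 2.88% of all probe sets rose. That gene was IL6, the cytokine, which rose by 1.11 ± 0.33 on the log2 scale (adjusted p 0.0479) and did not pass without pig 12_3 (1.13 ± 0.35, adjusted p 0.0673). CCL2 had -1.23 ± 0.39 in the average (adjusted p 0.0635), and -0.88 ± 0.33 without pig 12_3. Median changes of this list were -0.22 in the brachial artery, -0.05 in the internal mammary artery and -0.20 in the average.

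Of 17 other junction and endothelial adhesion genes 0 passed in either artery alone, while 3 rose and 0 fell in the average, where 2.88% of all probe sets rose and 1.8% fell. CLDN5, the claudin of endothelial tight junctions, rose by 0.35 ± 0.09 (adjusted p 0.0197) and OCLN, occludin, by 0.39 ± 0.10 (adjusted p 0.0259). The third, named after its value was seen, was ALCAM, an immunoglobulin-type adhesion molecule (0.24 ± 0.07, adjusted p 0.0443). Without pig 12_3 CLDN5 passed (0.38 ± 0.09, adjusted p 0.0180), and OCLN (0.32 ± 0.10, adjusted p 0.0618) and ALCAM (0.19 ± 0.06, adjusted p 0.0927) did not.

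Macrophage markers moved with training in the brachial artery, beside these results. There 3 of 9 fell and 0 rose, where 0.613% of all probe sets fell, with C1QC, a complement subunit, at -0.81 ± 0.18 (adjusted p 0.0228) and FCER1G at -0.88 ± 0.21 (adjusted p 0.0255), and with TYROBP as the third, named after its value was seen. In the internal mammary artery 0 of 9 passed. Of 7 markers of B and T cells 1 rose there, CD79B of the B cell receptor, by 1.46 ± 0.31 (adjusted p 0.0244), and by 1.06 ± 0.24 in the average (adjusted p 0.0110); without pig 12_3 the counts were 0 and 1 of 7. Without pig 12_3, 0 of 9 passed in either artery, while the brachial median was -0.51 with 5 of 9 at an unadjusted p under 0.05, against -0.57 with all pigs. With the macrophage mean as a covariate the brachial SELE change was 0.53 ± 0.44 (adjusted p 0.731). That of ICAM1 was 0.20 ± 0.37 (adjusted p 0.896) and that of SELP 0.17 ± 0.29 (adjusted p 0.887), each of the other sign than without it. VCAM1 (0.37 ± 0.26), ICAM2 and both PECAM1 probe sets kept their sign. Pig 12_3 had the highest brachial sedentary macrophage mean and SELE value, and leaving it out, with no covariate, already gave a SELE change of 0.08 ± 0.24. The part of macrophages in these changes was not tested.

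Between the arteries the surrounding genes differed often, as did the array as a whole. In the average of both training states 6 of the 17 junction and adhesion genes were higher and 3 lower in the brachial artery, where 31.8% of all probe sets were higher and 22.5% lower. OCLN was higher by 0.64 ± 0.08 (adjusted p 1.09e-07) and ENG, endoglin, by 0.64 ± 0.10 (adjusted p 5.9e-06). Of 7 leukocyte receptors 2 were higher and 2 lower, led by ITGB1, the beta chain that binds VCAM1 (0.17 ± 0.02, adjusted p 7.9e-07), and ITGAM, the alpha chain of an ICAM1 receptor (-0.41 ± 0.07, adjusted p 1.34e-05). Of the 19 NF-kappaB pathway genes 4 were higher and 4 lower, with MAP3K7, the kinase TAK1, at -0.76 ± 0.04 (adjusted p 4.95e-14) and JUN at -0.99 ± 0.09 (adjusted p 8.32e-10). Of 13 cytokine-induced genes 4 were higher and 3 lower, with CSF3 at 0.47 ± 0.06 (adjusted p 9.95e-08) and PTGS2 at -1.29 ± 0.26 (adjusted p 0.000158). Of the 5 glycosyltransferases from the selectin ligand list 1 was higher, FUT1 (0.15 ± 0.06, adjusted p 0.0424). Beside them 5 of 9 macrophage markers were lower in the brachial artery, and their part in these differences was not tested.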

How the data were processed

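RNA of luminal artery scrapes was hybridised to 1 Affymetrix porcine array per sample, with pigs as replicates. The deposited table holds log2 intensities per probe set that the authors computed, and affy is named per the submitters' processing notes. The background correction, normalization and summary method are not given in the sources used here, and the log2 scale was read from the values. No further scaling was done. Of 24123 probe sets 124 controls were left out. Gene symbols came from the platform annotation: 10069 probe sets had 1 symbol, 198 several and 13732 none. Groups follow titles and tags, because in 8 samples titled and tagged as exercised the source label says sedentary.

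All 29 arrays were fitted with limma 3.58.1 in R 4.3.3 (4 group means, pig as a random block with consensus correlation 0.255, Benjamini-Hochberg over 23999 probe sets, threshold 0.05), after the code was tested on simulated data. The pig identifiers in the labels pair the arteries. Correlations used values minus group means and 100000 permutations within training groups, or all arrangements where these number at most 5000. The PECAM1 probe set with the higher mean stood for the gene there. All probe sets of the 6 genes are named; the 5 most similar genes of each and the 2 smallest p per list are named otherwise. The members and lists were chosen with earlier results of these data known. Alternatives changed the block, scaling, moderation, filters, covariates and pigs. Leaving pig 12_3 out of the correlations and of the lists, and correlating the arteries within the first 8 and last 7 pigs, were chosen after seeing the data.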

Additional observations from a re-analysis of the deposited data

Results flagged for a closer look

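Of 28 checks of an extreme pig within a group, 3 found its gap to the next pig, divided by the range of the group, above the critical value for that group size; chance gives about 1 in 20. In brachial sedentary pigs SELE had a ratio of 0.672 through pig 12_3, whose log2 value of 8.97 lay above the next highest, 5.88. In internal mammary exercised pigs SELE had a ratio of 0.554 through pig 10_1, at 5.74 above the next highest of 5.05. SELP there had a ratio of 0.744 through pig 15_2, at 10.07 above the next highest of 9.37. Pig 15_2 was also the highest brachial exercised pig for SELP, at 9.82, whereas pig 10_1 had 5.07 for SELE in the brachial artery, the median of its group.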

How the results depend on the processing

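With training, 0 of 7 probe sets passed in both arteries, the average and the difference between arteries under all 30 alternatives. Between arteries, the count of 1 in exercised pigs became 0 with the last 7 pigs alone and by exact permutation, and 2 with the endothelial, smooth muscle or macrophage mean as covariate; leaving out single pigs gave 1. In sedentary pigs the count of 1, PECAM1 (S1), became 0 with no replicate block (log2 change -0.26, adjusted p 0.0887), with the pig as a fixed block (0.0768), and likewise with medians subtracted again, the 28S/18S ratio, the collection period or the macrophage mean in the fit, the first 8 or last 7 pigs alone, and exact permutation; leaving out single pigs gave 0 to 1. In the average it became 0 with the last 7 pigs alone and 2 with the fixed replicate block, exact permutation and those 3 covariates; leaving out single pigs gave 1 to 2, with 2 without pig 11_1. The added calls were ICAM1 (block, permutation), PECAM1 (A1; endothelial, pig 11_1), ICAM2 (smooth muscle) and SELE (macrophage, 0.66 ± 0.26). The 3 passing pairs of genes became 0 with rank correlation, without pig 12_3 and without the 2 farthest pigs. They also became 0 in the first 8 or last 7 pigs, where so few pigs could hardly pass over 30 pairs. The 1 gene passing between arteries became 0 without the 2 farthest pigs and in the first 8 or last 7 pigs, where few arrangements exist. Of 1463 values of single changes 21 lost and 9 gained the threshold, and 100 changed sign, none among called values. The filter on the dimmest probe sets removed SELE, and exact permutation between arteries within exercised or sedentary pigs had few arrangements. The permutation p of PECAM1 (S1) in sedentary pigs was 0.125 before adjustment. The causes were not tested. The number of arrays limits precision, and signal over background could not be measured from these values.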
